A study of Danio rerio with 12 samples.

Results

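The regulators that build skeletal muscle and the genes that drive its loss were followed in entire zebrafish larvae exposed to tritiated water. The set was named by 10 gene names: the myogenic factors myf5, myod1, myog and myf6, the growth inhibitor mstnb, the forkhead factors foxo1a and foxo3b, and the ubiquitin ligase genes FBXO32, trim63a and trim63b. Genes were taken by name from the count tables, ignoring case, and by the name without its final letter where a name was absent. This gave 11 genes of 32057, because 2 genes carry the symbol FOXO1 and the name table does not say which of them is foxo1a. Both are given here with their Ensembl IDs. Of the 11 genes, 9 had enough reads to be tested, among 23075 tested genes, and trim63a and trim63b had not.

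The larvae (Danio rerio, AB strain) came from eggs gathered 3 h after fertilization and grew at 28 °C in a medium of 60 mg sea salt per litre. Tritiated water (HTO), in which part of the hydrogen is the radioactive isotope tritium, gave the exposed larvae a dose rate of 0.4 mGy/h. The 4 groups were exposed larvae at 7 days post fertilization (dpf), controls at 7 dpf, exposed larvae at 10 dpf and controls at 10 dpf, each with 3 biological replicates. How many larvae went into a library is not given in the sources used here. Exposed larvae were kept in an incubator in a glove box and controls in one elsewhere in the room, so exposure and incubator cannot be told apart.

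Myf5 and MyoD commit cells to the muscle lineage, myogenin drives the differentiation of myoblasts and their fusion into fibres, and Myf6, also called Mrf4, acts mostly in later differentiation and in fibres. Myostatin is a secreted factor of the TGF-beta family that limits muscle growth. In mammals, FoxO factors are held out of the nucleus by insulin and Akt signalling, and when that signal falls they switch on genes of protein breakdown, among them FBXO32 (atrogin-1) and TRIM63 (MuRF1).

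The 12 libraries held 19.4 to 67.3 M reads on genes (M, 1000000). Levels are counts per 1000000 reads on genes (CPM, scaled by TMM), differences are log2 fold changes with their standard error (SE), and a gene passed at a Benjamini-Hochberg adjusted p under 0.05 in edgeR's quasi-likelihood test. Gene lengths were not used here, so levels are compared between groups and not between genes. Replicates of a group differed from each other by 7.17 to 28.8 times sampling noise (chi-square per degree of freedom), except exposed replicate 1 at 10 dpf, which differed from the other 2 of its group by 78.9 and 98.5 times. The 49 matched genes of a fast muscle list took 5.98 to 9.60% of the TMM-scaled reads on genes. All 49 were tested, as were 13 matched slow muscle and 23 matched heart muscle genes. Of these, 2 fast, 4 slow and 2 heart muscle genes were also in another list, so the lists are not fully separate. Of the symbols asked, 13 of 58 fast, 3 of 14 slow and 5 of 25 heart muscle symbols had no match. In RNA from entire larvae, fewer cells of a type and less RNA per cell cannot be told apart.

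FBXO32, the muscle atrophy ligase, was the 1 of 9 tested members that passed the exposure test at 10 dpf, where 11.8% of all tested genes did. At 7 dpf 0 of 9 passed by edgeR, against 0.516% of all tested genes. At 10 dpf FBXO32 was lower in all 3 exposed libraries than in the controls, by 0.63 on the log2 scale. At 7 dpf its level in exposed and control larvae overlapped. No myogenic factor passed the exposure test at either age.

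FBXO32 (ENSDARG00000040277) encodes the F-box protein that brings substrates to an SCF ubiquitin ligase. At 10 dpf its level was 93.0, 121 and 121 CPM in exposed replicates 1, 2 and 3, against 185, 183 and 149 CPM in the controls. All exposed libraries lay below all controls, with exposed replicate 1 lowest and control replicate 3 nearest to the exposed ones. The difference was -0.63 ± 0.13 on the log2 scale (SE), a fold of 0.648, with a 95% interval of -0.90 to -0.35 (edgeR adjusted p = 0.00921). This difference passed under every alternative run. Without exposed replicate 1 it was -0.51 (edgeR adjusted p = 0.0276), and the highest edgeR adjusted p was 0.0488, without control replicate 1. At 7 dpf FBXO32 had 105, 141 and 132 CPM in exposed libraries and 135, 123 and 122 CPM in controls, which overlapped. The difference at 7 dpf was -0.01, with a 95% interval of -0.28 to 0.27. The difference between the effects at 10 and 7 dpf was -0.62 ± 0.18 (SE), which did not pass (edgeR adjusted p = 0.229).

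Over the 4 groups FBXO32 averaged 126 ± 18.8 CPM in exposed and 127 ± 7.54 CPM in control larvae at 7 dpf, and 112 ± 16.1 CPM in exposed and 172 ± 20.4 CPM in control larvae at 10 dpf (SD, n = 3 each). Controls at 10 dpf held the highest level and lay above every other library, at 149 to 185 CPM. Exposed larvae at 7 dpf, at 105 to 141 CPM, overlapped both controls at 7 dpf and exposed larvae at 10 dpf. Exposed larvae at 10 dpf lay just under controls at 7 dpf, with a highest value of 121.3 CPM against a lowest of 121.7 CPM. In controls the gene was higher at 10 than at 7 dpf by 0.44 ± 0.13 (SE, edgeR adjusted p = 0.0198). In exposed larvae the same age difference was -0.18, with an interval of -0.45 to 0.10 (edgeR adjusted p = 0.358). The rise in controls lost its call without control replicates 2 or 3 at 7 dpf (edgeR adjusted p = 0.0684 and 0.0646) and without control replicates 1 or 2 at 10 dpf (0.0717 each). The control libraries at 10 dpf enter both the exposure and the age comparison.

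**Figure D1:**
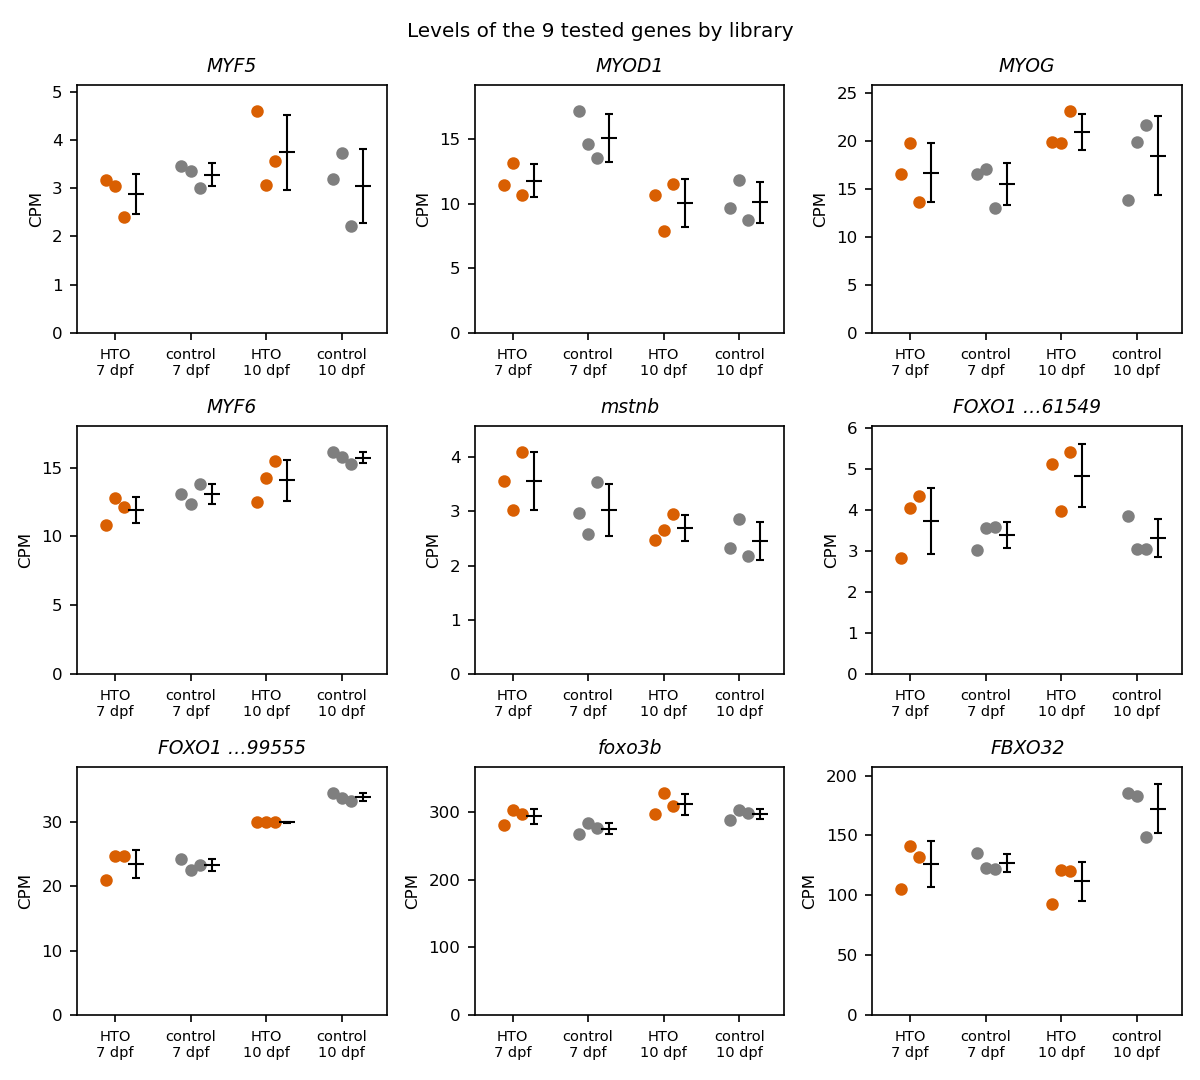
Each panel shows CPM (vertical axis, linear from 0) of 1 of the 9 tested genes in the 4 groups, with points for replicates 1 to 3 from left to right and a bar for the mean and SD. FBXO32 lies at 149 to 185 CPM in control larvae at 10 dpf and at 93.0 to 121 CPM in exposed larvae of that age, and FOXO1 (ENSDARG00000099555) lies higher at 10 dpf in both exposed and control larvae.

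Fast muscle transcripts were set beside FBXO32, which acts in muscle fibres. Of the 49 fast muscle genes 15 were higher and 1 was lower in exposed larvae at 10 dpf, with a median of 0.21, where 4.77% of all tested genes were higher and 7.02% lower. Their summed level was 59757 to 72019 CPM in exposed and 61815 to 62999 CPM in control libraries, which overlapped. Exposed replicate 1 was lowest, at 59757 CPM, and had the highest TMM factor of the 12 libraries (1.102). The overlap of the sums rests on that replicate and depends on the TMM scaling. Exposed replicates 2 and 3, at 67702 and 72019 CPM, lay above all controls. Relative to this sum, the log2 ratio of FBXO32 was -9.33, -9.12 and -9.22 in exposed libraries at 10 dpf, against -8.41, -8.40 and -8.70 in controls. The mean ratios differed by -0.72 (pooled SD 0.161) without overlap, and at 7 dpf by -0.15 with overlap. The share of all tested genes without overlap on this ratio was not counted. FBXO32 is also expressed in the heart in mammals, and of 23 heart muscle genes 1 was higher and 0 were lower at 10 dpf, at a median of -0.18. The summed level of the heart list was 469 to 566 CPM in exposed and 537 to 594 CPM in control libraries, with exposed replicate 1 lowest. Against each gene's mean over the 12 libraries, the list averaged -0.64 on the log2 scale in that replicate. It averaged -0.09 and -0.05 in exposed replicates 2 and 3, and -0.14 to -0.07 in controls. No heart gene was filtered out as too low. The part of heart muscle in the difference of FBXO32 was not tested.

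trim63a and trim63b encode the zebrafish counterparts of MuRF1, a ligase of thick filament proteins in mammals. trim63a had 7 reads in all, in 6 of 12 libraries and at most 2 in 1 library, of which 3 fell in exposed and 4 in control larvae. trim63b had 4 reads in 4 libraries, 2 in exposed and 2 in control larvae. A count of 3 reads, which a count of 0 allows, stood for 0.044 to 0.153 CPM depending on the library. Both genes were therefore at or under the level that these depths can show, and no difference between groups could be read for them. TRIM55 (MuRF2), a related ligase, is described with the muscle ligases.

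The myogenic factors MYF5 and MYOD1 come first in the lineage. MYF5 (ENSDARG00000007277) had 3.17, 3.05 and 2.40 CPM in exposed and 3.46, 3.36 and 3.01 CPM in control larvae at 7 dpf, and 4.60, 3.06 and 3.56 CPM against 3.19, 3.74 and 2.21 CPM at 10 dpf. Its groups overlapped at both ages, with differences of -0.17 (interval -0.60 to 0.26) at 7 dpf and 0.27 (-0.15 to 0.69) at 10 dpf, and it did not pass with age.

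MYOD1 (ENSDARG00000030110), the lineage determinant, had 11.5, 13.2 and 10.7 CPM in exposed larvae at 7 dpf, against 17.2, 14.6 and 13.5 CPM in controls. All exposed libraries lay below all controls, by a narrow margin of 13.2 against 13.5 CPM, and control replicate 1 lay highest. The difference of -0.36 ± 0.15 (SE) did not pass (edgeR adjusted p = 0.376). At 10 dpf the level was 10.7, 7.93 and 11.5 CPM in exposed and 9.69, 11.9 and 8.77 CPM in control larvae, which overlapped (difference -0.02, interval -0.35 to 0.31). In controls MYOD1 was lower at 10 than at 7 dpf by -0.58 ± 0.15 (SE, edgeR adjusted p = 0.0115), without overlap, and this fall lost its call without control replicate 1 at 7 dpf (edgeR adjusted p = 0.053). In exposed larvae the age difference was -0.24, with an interval of -0.57 to 0.09 (edgeR adjusted p = 0.287). Whether the age changes differ is the same contrast as whether the exposure effects differ, at 0.34 (interval -0.13 to 0.81, edgeR adjusted p = 0.58).

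MYOG (ENSDARG00000009438), the differentiation factor myogenin, had 16.6, 19.9 and 13.7 CPM in exposed and 16.6, 17.1 and 13.1 CPM in control larvae at 7 dpf. At 10 dpf it had 19.9, 19.8 and 23.2 CPM in exposed and 13.9, 19.97 and 21.7 CPM in control larvae. The groups overlapped at both ages, with differences of 0.11 (interval -0.26 to 0.49) and 0.18 (-0.19 to 0.56), and no age difference passed. The count of reads without regard to strand was 17.3 to 23.1% of the stranded count for MYOG, against 100 to 111% for the other members, so its level depends on counting by strand. With unstranded counts its exposure differences were 0.0030 at 7 dpf and 0.036 at 10 dpf.

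Reads of MYOG per read of MYOD1, a ratio chosen after the values were seen, were 1.45, 1.51 and 1.28 in exposed and 0.965, 1.17 and 0.966 in control larvae at 7 dpf. These did not overlap, whereas at 10 dpf the ratio was 1.87, 2.504 and 2.01 in exposed and 1.43, 1.69 and 2.47 in control larvae, which overlapped. With unstranded counts the ratios at 7 dpf overlapped. Exposed replicate 1 then had 154 MYOG and 596 MYOD1 reads, a lower ratio than control replicate 2 with 122 and 455. The ratio is given as a description with no test.

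**Figure D2:**
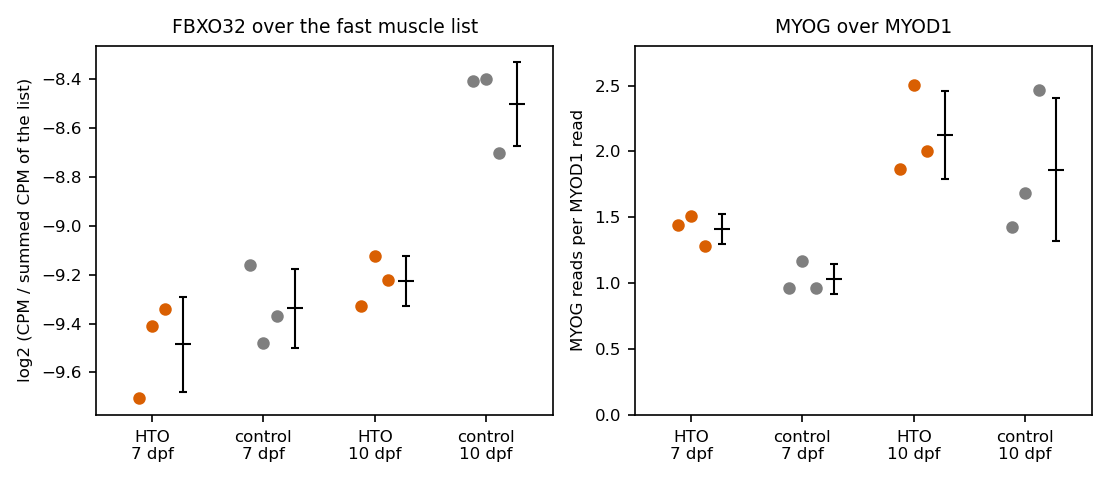
The left panel shows the log2 ratio of FBXO32 to the summed CPM of the fast muscle list and the right panel the reads of MYOG per read of MYOD1 (linear from 0), with points for the 3 replicates of each group and a bar for the mean and SD. At 10 dpf the ratio of FBXO32 lies at -9.33 to -9.12 in exposed and at -8.70 to -8.40 in control larvae.

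MYF6 (ENSDARG00000029830), the late factor, had 10.9, 12.8 and 12.1 CPM in exposed and 13.0, 12.4 and 13.8 CPM in control larvae at 7 dpf, which overlapped. At 10 dpf it had 12.5, 14.2 and 15.4 CPM in exposed and 16.1, 15.8 and 15.3 CPM in control larvae, with exposed replicate 1 lowest. The differences of -0.14 (interval -0.34 to 0.07) and -0.16 (-0.36 to 0.04) did not pass. Relative to the fast muscle list, MYF6 was lower in exposed larvae by -0.27 at 7 dpf, with overlap, and by -0.26 at 10 dpf, without overlap. On the same scale exposed and control libraries also did not overlap for MYOD1 (-0.49) and MYF5 (-0.33) at 7 dpf and for FOXO1 (ENSDARG00000099555, -0.27) at 10 dpf. For MYF5 the margin was narrow, at -14.749 against -14.701, and its CPM overlapped. The mean fast muscle sum at 7 dpf was 89772 CPM in exposed and 81938 CPM in control larvae, which enters every ratio. The share of all tested genes without overlap on this scale was not counted, and these ratios were not tested. The age rise in controls was 0.27 ± 0.09 (SE, edgeR adjusted p = 0.0496). That call was lost in 9 of 14 alternatives, among them the leaving out of each control library in turn (edgeR adjusted p 0.0565 to 0.159), so it lies at the threshold. In exposed larvae the age difference was 0.24 ± 0.10 (SE, edgeR adjusted p = 0.0869), which passed without exposed replicate 1 at 10 dpf (edgeR adjusted p = 0.0433).

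mstnb (ENSDARG00000069133), which encodes a zebrafish myostatin, had 3.56, 3.02 and 4.09 CPM in exposed and 2.96, 2.59 and 3.53 CPM in control larvae at 7 dpf. At 10 dpf it had 2.47, 2.65 and 2.96 CPM in exposed and 2.33, 2.85 and 2.18 CPM in control larvae. Exposed and control libraries overlapped at both ages. The differences were 0.21 (interval -0.14 to 0.57) and 0.13 (-0.23 to 0.49). In exposed larvae all libraries at 10 dpf lay below all at 7 dpf, by -0.38 ± 0.17 (SE), which did not pass (edgeR adjusted p = 0.118). In controls the age difference was -0.30 with overlap.

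The 2 FOXO1 genes differed in their values. FOXO1 (ENSDARG00000061549) had 5.13, 3.98 and 5.41 CPM in exposed larvae at 10 dpf, against 3.86, 3.06 and 3.06 CPM in controls. All exposed libraries lay above all controls, with exposed replicate 2 just above control replicate 1. The difference of 0.53 ± 0.18 (SE, interval 0.15 to 0.92) did not pass (edgeR adjusted p = 0.0698), though it did with DESeq2 (adjusted p = 0.0475) and without exposed replicate 2 (edgeR adjusted p = 0.0477). At 7 dpf this gene had 2.83, 4.04 and 4.35 CPM in exposed and 3.02, 3.56 and 3.59 CPM in control larvae, which overlapped (0.13, interval -0.26 to 0.52). With age it did not pass in exposed (0.39) or control larvae (-0.02).

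FOXO1 (ENSDARG00000099555) was higher at 10 than at 7 dpf in both exposed and control larvae. In exposed larvae it had 29.9, 29.9 and 30.0 CPM at 10 dpf, against 20.95, 24.7 and 24.6 CPM at 7 dpf, without overlap (0.35 ± 0.08, SE, edgeR adjusted p = 0.00449). In controls it had 34.4, 33.7 and 33.2 CPM at 10 dpf, against 24.2, 22.4 and 23.2 CPM at 7 dpf (0.54 ± 0.08, SE, edgeR adjusted p = 0.000187). Both rises passed under every alternative run. At 10 dpf exposed larvae lay below controls in every library, by -0.18 ± 0.08 (SE, interval -0.34 to -0.01), which did not pass (edgeR adjusted p = 0.144). At 7 dpf the groups overlapped, with a difference of 0.01 (interval -0.16 to 0.17).

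foxo3b (ENSDARG00000042904), a further forkhead factor, had 282, 304 and 297 CPM in exposed and 268, 284 and 276 CPM in control larvae at 7 dpf. At 10 dpf it had 297, 328 and 310 CPM in exposed and 289, 304 and 300 CPM in control larvae, and the groups overlapped at both ages. Its intervals were among the narrowest of the members, at -0.05 to 0.24 for exposure at 7 dpf and -0.08 to 0.21 at 10 dpf. In controls all libraries at 10 dpf lay above all at 7 dpf, by 0.11 (edgeR adjusted p = 0.253).

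**Figure D3:**
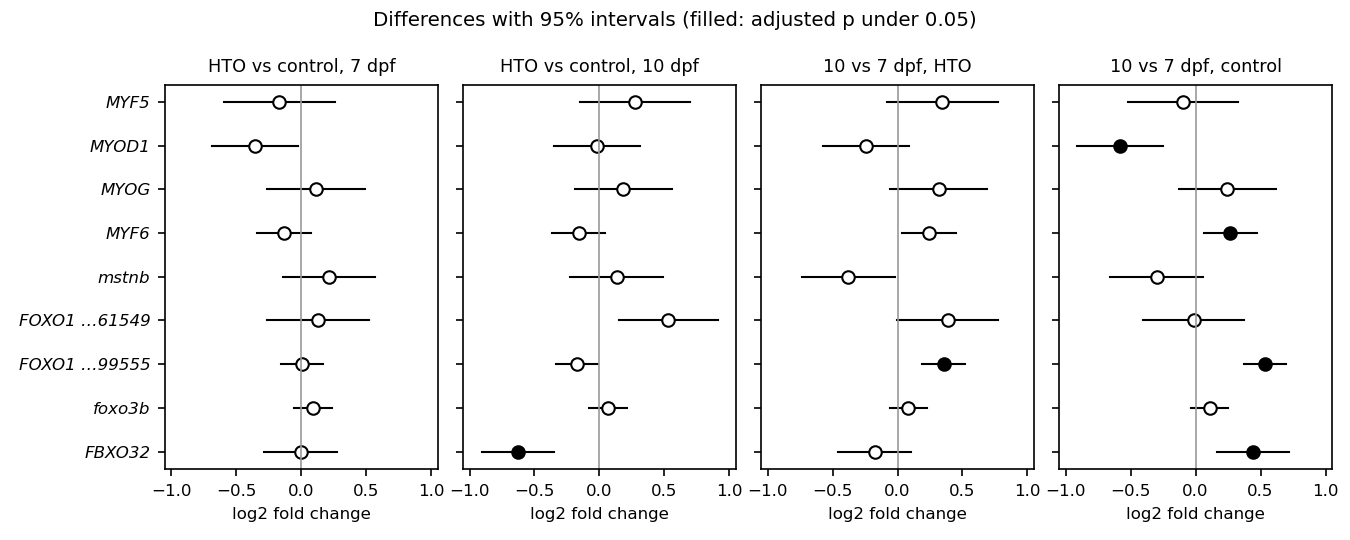
Each panel shows 1 comparison, with the log2 fold change of each of the 9 tested genes (horizontal axis) as a point and its 95% interval as a line, and filled points for adjusted p under 0.05 in edgeR. FBXO32 at -0.63 is the one filled point for exposure at 10 dpf, and 4 points are filled with age in controls.

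Counted over the 9 tested genes, 0 passed at 7 dpf by edgeR, where 0.516% of all tested genes did, with 1 gene (MYOD1) at an unadjusted p under 0.05 and 0 passing in DESeq2. At 10 dpf 1 of 9 passed, which was lower, against 11.8% of all tested genes, where 7.02% were lower and 4.77% higher. Libraries did not overlap in 3 of 9 members at 10 dpf, 1 higher and 2 lower, against 33.8% of all tested genes, 15.4% higher and 18.4% lower. At 7 dpf this held for 1 of 9, which was lower, against 16.7%, with 8.15% higher and 8.6% lower. These shares are near the background. For the difference between the effects 0 passed by edgeR and by DESeq2, against 0.269%, with 1 gene (FBXO32) at an unadjusted p under 0.05. The shares of all tested genes at an unadjusted p under 0.05 were not counted. With age 1 of 9 passed in exposed larvae, against 23.2% of all tested genes, and 4 of 9 in controls, 3 higher and 1 lower, against 29.3%. Libraries of both ages did not overlap in 2 of 9 members in exposed larvae, 1 higher and 1 lower, against 39.6% of all tested genes, 19.4% higher and 20.2% lower. In controls this held for 5 of 9, 4 higher and 1 lower, against 46.1%, 22.5% higher and 23.6% lower. The median difference over the 9 genes was 0.01 at 7 dpf and 0.07 at 10 dpf, where the medians of all tested genes were -0.01 and -0.0040.

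Across the 12 libraries the 2 members whose levels moved most closely together were MYF6 and FOXO1 (ENSDARG00000099555), with a Pearson's r of log2 CPM of 0.849, and 0.589 within groups. FBXO32 and MYF6 had an r of 0.677, and 0.794 within groups. Among 12942 named genes that averaged 5 CPM or more, those most like FBXO32 were the small GTPase RAB10 (r = 0.974), cyp2v1 of the cytochrome P450 family (0.970) and COA1, a mitochondrial assembly factor (0.961). Those most like MYOD1 were SELENOM (0.908), GLE1 (0.901) and METTL26 (0.891), and those most like MYF6 were spsb3b (0.955), HEATR3 (0.955) and gbp3 (0.952). Those most like FOXO1 (ENSDARG00000099555) were ECD (0.988), RINT1 (0.986) and eps8l1a (0.982). Within groups the r of these named genes with their members was lower, from 0.732 (eps8l1a) to 0.944 (RAB10). The 12 libraries differ in age, exposure and depth, and these differences enter every r taken over all of them. Genes were also picked from many, so these r values only describe the 12 libraries.

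Genes around the members were taken from lists. The list of ubiquitin ligases of muscle also holds ligase subunits and adaptors, ubiquitin-conjugating enzymes and deubiquitinases, and some of its genes are not particular to muscle. Of its 44 tested genes, 4 were lower and 2 higher in exposed larvae at 10 dpf, at a median of -0.08. Over all tested genes 7.02% were lower and 4.77% higher. TRIM55 had 38.1 ± 4.44 CPM in exposed and 53.9 ± 5.77 CPM in control larvae (SD, n = 3 each), a difference of -0.50 (edgeR adjusted p = 0.0285). FBXO30, known in mouse muscle atrophy as MUSA1, was lower in exposed larvae by 0.82 and the proteasome deubiquitinase USP14 by 0.48. In contrast asb2b, of a family of Cullin ligase adaptors, was higher by 0.38. The count of 6 was 2 when exposed replicate 1 or 3 was left out, 1 when control replicate 1 was and 3 when control replicate 2 was.

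Of 65 autophagy genes and FoxO targets, 10 were lower and 2 higher in exposed larvae at 10 dpf, at a median of -0.08. Over all tested genes 7.02% were lower and 4.77% higher. CTSB, a lysosomal protease, had 176 ± 14.9 CPM in exposed and 274 ± 3.81 CPM in control larvae (SD, n = 3 each), a difference of -0.64 (edgeR adjusted p = 0.000746). PDK4, a kinase that spares glucose in fasting and a FoxO target in mammals, had 27.6 ± 1.44 CPM in exposed and 39.9 ± 1.15 CPM in control larvae (-0.53, edgeR adjusted p = 0.00129). The autophagy receptor OPTN was lower in exposed larvae by 0.59 and the protease CTSD by 0.40. The others that were lower, named after their values were seen, were gabarapb, ATG4B, ctsla, LAMP2, ATG3 and MAP1LC3A, by 0.24 to 0.50. Those that were higher were the calpains capn1a and CAPN3. The count of 12 was 6 when exposed replicate 1 was left out, 7 for exposed replicate 3, 4 for control replicate 1 and 5 for control replicate 2. At 7 dpf 1 of the 65 passed, beside 0.516% of all tested genes. This was the autophagy kinase ULK2, with 235 ± 21.6 CPM in exposed and 164 ± 13.1 CPM in control larvae (0.52, edgeR adjusted p = 0.0249). The call was lost without exposed replicates 2 or 3, without control replicates 1 or 2, and when the compared groups were fitted alone.

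**Figure D4:**
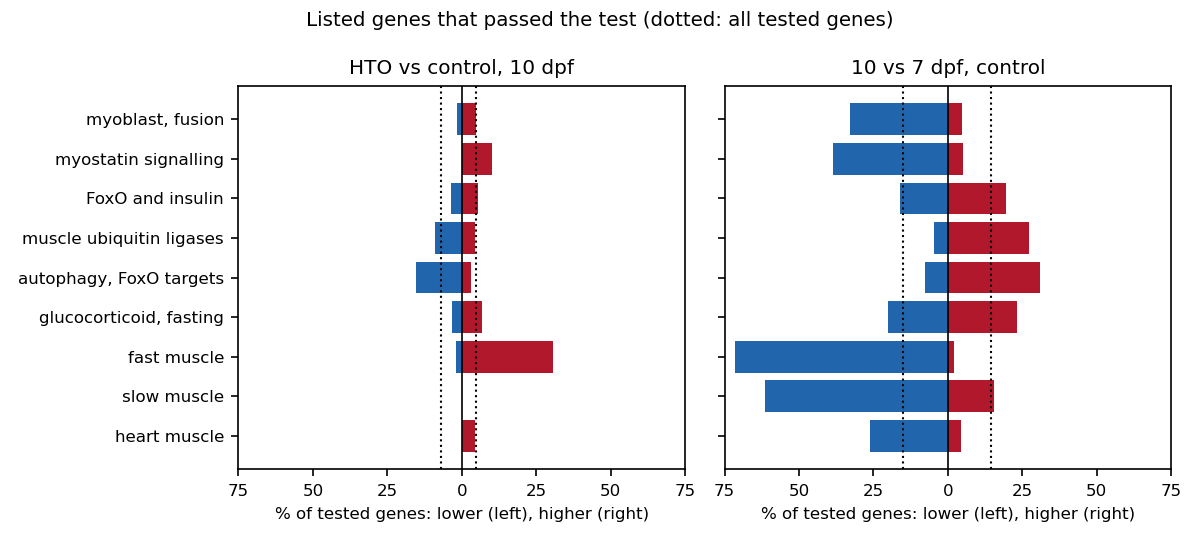
Bars show the percentage of the tested genes of each list that were lower (left) or higher (right) in edgeR's test, for exposed against control larvae at 10 dpf and for 10 against 7 dpf in controls, with dotted lines for all tested genes. At 10 dpf 10 of 65 autophagy and FoxO target genes were lower and 15 of 49 fast muscle genes higher in exposed larvae.

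Of 56 genes of FoxO and insulin signalling, 3 were higher and 2 lower at 10 dpf, at a median of 0.07. Over all tested genes 4.77% were higher and 7.02% lower. The regulatory subunits of PI3 kinase PIK3R1 and pik3r3a were higher in exposed larvae by 0.32 and 0.45 and the mTORC1 activator rheb by 0.36. PDPK1, a kinase upstream of Akt, was lower by 0.25. The count of 5 was 3 without any single exposed replicate and 2, 0 and 1 without control replicates 1, 2 and 3. Of 39 genes of myostatin signalling 4 were higher and 0 lower, at a median of 0.12. These were skilb and SKI (0.38 and 0.34), corepressors of Smad signalling, DCN (0.31), the proteoglycan decorin that binds myostatin in mammals, and the activin subunit INHBA (0.55). The count of 4 was 2 without exposed replicate 1 and 1 without control replicates 1 or 2.

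Of 64 genes of myoblasts and fusion 3 were higher and 1 lower at 10 dpf, at a median of 0.06. Over all tested genes 4.77% were higher and 7.02% lower. Those called in this list were hdac9b (0.35), SOX6 (0.40), a repressor of slow fibre genes, jam2a (0.39), an adhesion protein needed for myoblast fusion in zebrafish, and VGLL2 (-0.52), a cofactor of TEAD factors. Of 30 glucocorticoid and fasting genes 2 were higher and 1 lower, at a median of 0.07. The clock genes PER1 (ENSDARG00000012499 and ENSDARG00000056885) were higher in exposed than in control larvae by 0.74 and 0.43. PDK4, which this list shares, was lower as above. The count of 3 was 5 without exposed replicate 1 and 6 without control replicate 1. At 7 dpf SOCS3 (ENSDARG00000026611), an inhibitor of cytokine signalling, was lower by 1.09 in exposed than in control larvae (edgeR adjusted p = 0.00735).

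Among fast muscle genes MYOZ1, a protein of the Z-disc, had 25.01 ± 0.793 CPM in exposed and 16.0 ± 0.426 CPM in control larvae at 10 dpf (SD, n = 3 each, edgeR adjusted p = 0.00086). HHATL (ENSDARG00000005139 and ENSDARG00000039051) was higher in exposed than in control larvae by 0.62 and 0.49 and the glycolytic enzyme PGAM2 by 0.40. With age both HHATL genes were lower, at -1.31 and -2.36 in exposed and -1.81 and -2.65 in control larvae. The myosin heavy chain myhb was lower in exposed than in control larvae, by 0.73 at 10 dpf and by 1.27 at 7 dpf. The count of 16 was 10 without exposed replicate 3 and without control replicates 1 or 3. Slow muscle had 0 of 13 called at 10 dpf by edgeR and by DESeq2, with 3 at an unadjusted p under 0.05, a share not counted over all genes. Over all tested genes 11.8% passed at 10 dpf by edgeR. Of 23 heart genes myl4 was higher in exposed than in control larvae (0.31). That call was lost when exposed replicate 1 or control replicates 1 or 3 were left out. It was also lost with no filter, the replicate block or the compared groups alone. Of 18 tendon and connective tissue genes TNMD was higher (0.32) and XIRP2 (ENSDARG00000091090) lower by 0.36 in exposed larvae. The count of 2 was 0 when exposed replicate 1 or 3 or control replicate 1 was left out or the compared groups were fitted alone. It was 1 when control replicate 3 was left out and under the replicate block, 4 when exposed replicate 2 was left out and 5 with DESeq2. Of 17 neuromuscular genes NRAP was lower by 0.52, and the count of 1 was 2 when control replicate 3 was left out.

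With age in controls 14.3% of all tested genes were higher and 15% lower. Of the ligase list 12 were higher and 2 lower at 10 than at 7 dpf. Among them were TRIM55 (0.85) and the deubiquitinase USP14 (0.66) upward and FBXO25 (-0.35) downward. Of autophagy genes and FoxO targets 20 were higher and 5 lower, with LAMP1 of the lysosome membrane (0.75) and the stress protein SESN1 (0.85) upward and capn1a (-0.56) and sesn3 (-0.64) downward. Of myoblast genes 3 were higher and 21 lower, with VGLL2 (0.84) and tbx6 (0.75) upward and the growth factor FGF6 (ENSDARG00000009351, -1.15) and the myoblast cadherin CDH15 (-1.09) downward. Of myostatin signalling 2 were higher and 15 lower, with TGFBR1 (0.41) upward and tcap, which encodes a Z-disc protein that binds myostatin in mammals, downward (-2.04), and the count of 17 was 9 when control replicate 1 at 10 dpf was left out. Of FoxO and insulin signalling 11 were higher and 9 lower, with TSC1 (1.02), an inhibitor of mTORC1, upward and IGFBP3 (-0.80) downward. The fast muscle list had 35 of 49 genes lower and 1 higher, at a median of -0.57. Its summed level was 61815 to 62999 CPM at 10 dpf and 77551 to 87779 CPM at 7 dpf in controls.

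In exposed larvae 10.8% of all tested genes were higher and 12.4% lower with age. There the counts were 11 higher and 2 lower for the ligase list and 11 higher and 9 lower for autophagy genes and FoxO targets. Myoblast genes gave 5 higher and 11 lower, myostatin signalling 4 and 6, FoxO and insulin signalling 9 and 5, and fast muscle 2 and 35. Several of these counts fell when single exposed libraries were left out. So did the count over all genes, from 5343 to between 3722 and 5233. How much of each fall came from the smaller groups was not tested. The 13 genes of the ligase list were 8 and 6 when replicates 1 and 3 at 7 dpf were left out and 6 when replicate 2 at 10 dpf was. The 16 myoblast genes were 10 when replicate 2 of either age was left out, the 10 genes of myostatin signalling were 6 when replicate 1 or 3 at 7 dpf was, and the 14 of FoxO and insulin signalling were 9 and 8 when replicates 1 and 3 at 7 dpf were. FBXO30 rose by 0.93 with age in exposed larvae, to 18.2 CPM at 10 dpf, where controls had 32.1 CPM. PDK4 fell by 0.50 with age in exposed larvae, to 27.6 CPM, where controls at 10 dpf had 39.9 CPM. The age changes of these genes in controls are not given here, so neither is shown to be particular to exposed larvae. The difference between the counts in exposed and control larvae was not tested, and edgeR called 0 genes of these lists for the difference between the effects. At an unadjusted p under 0.05 that difference gave 13 of 65 autophagy genes and FoxO targets, 10 of 49 of fast muscle and 6 of 64 of the myoblast list. It also gave 5 of 39 of myostatin signalling, 1 of 44 of the ligase list and 1 of 56 of FoxO and insulin signalling. The share of all tested genes at that unadjusted p was not counted, so whether these counts exceed it cannot be read here. DESeq2 called 1 gene each for the difference in the autophagy, fast muscle and myostatin lists, and 0 in the other 3. Relative to the fast muscle list, FBXO32 was higher at 10 than at 7 dpf by 0.26 in exposed larvae. In controls the difference was 0.83, and libraries overlapped in neither. The margin in exposed larvae was narrow, at -9.328 against -9.339. There the mean summed fast muscle level fell with age from 89772 to 66493 CPM, while FBXO32 itself differed by -0.18. On this scale all tested members except MYOD1 and mstnb were higher with age in exposed larvae, without overlap. The falling fast muscle sum enters each of these ratios. In CPM, 1 of the 9 tested members was higher with age in exposed larvae without overlap, and 1 was lower. The share of all tested genes without overlap on the ratio scale was not counted.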

How the data were processed

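The deposited values of the 12 libraries are raw read counts per gene, made with STAR on genome build GRCz11, per the submitters' processing notes. Neither a STAR version nor an annotation release is given in the sources used here. Per the labels, the libraries were prepared with a stranded mRNA kit, from total RNA with no DNase step. STAR's tables hold uniquely mapped reads, so genes with near-identical copies may be undercounted. The column of the opposite strand to read 1 was used, since the other one held 2.24 to 2.55% of reads on genes. Symbols came from a name table, which names 28988 of 32057 genes.

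Genes were kept with filterByExpr (minimum count 10, minimum total 15), which left 23075, and fitted with edgeR 4.0.16 in R 4.3.3 (TMM scaling, robust quasi-likelihood, 4 group means, two-sided, Benjamini-Hochberg adjustment over all genes). The fits were also run on simulated data with the same spread in all groups. Those data held no outlying library, and the outcome is not given here. The members and lists were chosen with earlier results of these data known, so no list or pattern here is independent support. The named genes were all members, up to 4 genes of each list with the smallest p per exposure comparison and up to 2 per direction with age, with a mean of at least 5 CPM; further names were added where a count was small. The 432 list symbols were looked up by name or by name without a final letter, and some had no match. Alternatives were RLE and upper quartile scaling, no filter or a filter of 1 CPM in 3 libraries, a replicate block, unstranded counts, DESeq2 1.42.0, a fit of the compared groups alone, and each library left out. Intervals cover counting error and the spread between replicates. That spread was estimated in 1 fit over all 4 groups and drawn toward that of other genes, so it is not that of the compared groups alone.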

Additional observations from a re-analysis of the deposited data

How the results depend on the processing

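Over the 9 tested genes and 5 comparisons, 629 of 675 alternative values kept their direction and side of the threshold. Of the rest, 14 lost the call, 3 gained it and 29 turned in sign. Most of the 675 values belong to results that were not called, where no call could be lost. The 14 losses were all of calls with age in controls, 9 for MYF6, 4 for FBXO32 and 1 for MYOD1. The largest turned value was 0.134 on the log2 scale and none of those 29 had been called. Outside the leaving out of libraries, the values that turned were FBXO32 at 7 dpf (-0.01 as reported), at 0.016 with RLE scaling, 0.0075 with upper quartile scaling, 0.0026 with the filter of 1 CPM in 3 libraries, 0.016 with DESeq2 and 0.0028 with the compared groups alone; MYOD1 at 10 dpf, at 0.0076 with upper quartile scaling; and FOXO1 (ENSDARG00000061549) with age in controls, at 0.00073 with upper quartile scaling. The level of FOXO1 (ENSDARG00000099555) in exposed larvae at 10 dpf was 30.2 CPM without TMM scaling, against 29.9 CPM with it. Leaving out single libraries moved FBXO32 at 7 dpf between -0.089 and 0.125, MYOG at 7 dpf between -0.027 and 0.227, FOXO1 (ENSDARG00000099555) at 7 dpf between -0.030 and 0.096, MYOD1 at 10 dpf between -0.115 and 0.134, MYF5 with age in controls between -0.267 and 0.076, and FOXO1 (ENSDARG00000061549) with age in controls between -0.132 and 0.045. For the difference between the effects the ranges were -0.096 to 0.229 for MYOG, -0.089 to 0.045 for MYF6, -0.196 to 0.043 for mstnb and -0.064 to 0.011 for foxo3b. Members called at 10 dpf numbered 1, 2 with DESeq2 and 1 to 2 without single libraries; with age they were 1 to 2 in exposed larvae (1 with all) and 2 to 3 in controls (4 with all). The cause was not tested. Over all genes 119 passed at 7 dpf, with 62 under the replicate block, 595 with DESeq2, 66 with the compared groups alone and 12 to 831 without single libraries; 2721 passed at 10 dpf, with 1153 to 2145 without single libraries; and 62 passed for the difference, with 22 under the replicate block, 280 with DESeq2 and 10 to 63 without single libraries.

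Whether the replicate numbers pair the libraries was not tested. Correlations of deviations between same-numbered libraries of different groups were -0.20 to 0.22, over 0.1 in 3 of 18 pairs. Between differently numbered libraries of different groups they were -0.28 to 0.25, over 0.1 in 11 of 36 pairs. Between 7 and 10 dpf, same-numbered replicates 1, 2 and 3 had 0.22, 0.04 and 0.18 in controls. In exposed larvae these were 0.08, 0.16 and -0.14. With the replicate block the difference of FBXO32 between exposed and control larvae at 10 dpf was -0.63 (edgeR adjusted p = 0.0169). The members called were then 1 at 10 dpf and 3 with age in controls. Counts of list genes at 10 dpf that moved by over 1.5 times included 7 myoblast genes with upper quartile scaling or DESeq2 (4 as reported). They also included 7 of myostatin signalling with DESeq2 (4 as reported). Under the replicate block there were 3 genes of the ligase list (6 as reported) and 3 of FoxO and insulin signalling (5 as reported). The 3 replicates per group and the low levels of MYF5, mstnb and FOXO1 (ENSDARG00000061549) limit what can be called, and trim63a and trim63b were too low to compare.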
